A study of Mus musculus with 12 samples.

Results

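The genes described here are 8 stromal genes, Fap, Tnc, Postn, Dpt, Pamr1, Itih5, Fn1 and Ccdc80, out of 19937 genes measured. They were chosen by these same intensities, as stromal genes whose levels had changed strongly between the groups, so their levels and differences are given as a description, with no test. The study follows YAP1, a transcriptional co-activator held in check by Hippo signalling, in mouse rhabdomyosarcoma, a soft tissue tumour that carries traits of the muscle lineage. The samples were allograft tumours at day 0 of doxycycline removal (TUM), tumours 3 days after removal (OFF3), tumours 6 days after removal (OFF6), and hindlimb muscle of uninduced mice as the control (CTL). Each group had 3 arrays, and every sample carried the genotype Myf5Cre, R26-LSL-rtTA and Col1a-Teto-hYAP1 S127A on a C57BL/6 background. In this genotype Cre follows the muscle lineage gene Myf5, and doxycycline switches on a human YAP1 with a single amino acid change in cells with a Myf5 history. The tumours grew from interstitial cells of doxycycline-treated donors' hindlimbs, placed in the gastrocnemius of doxycycline-treated NOD/SCID mice, an immunodeficient strain. The hosts had fibroblasts, vessels and macrophages of their own, and the arrays do not separate host from donor RNA. The labels give no ages and do not say whether the replicates were separate animals.

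Fibroblasts of resting muscle keep a quiet connective tissue, and after injury or in a tumour they become activated and lay down a provisional matrix. Fibronectin (Fn1), tenascin-C (Tnc) and periostin (Postn) are adhesive glycoproteins of that matrix and are bound by integrins on neighbouring cells. In regenerating muscle this matrix surrounds the muscle progenitors while new fibres form. Fap is a cell surface serine protease used as a marker of activated fibroblasts. Pamr1 is named for its association with muscle regeneration. Dermatopontin (Dpt) binds decorin and takes part in collagen fibril assembly, Itih5 belongs to the inter-alpha-trypsin inhibitor heavy chains, which bind hyaluronan, and Ccdc80 is a secreted matrix-associated protein.

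All values are log2 of the deposited array intensity, so a difference of 1 is a doubling, and each gene was read by 1 probe set. Median intensity over all probe sets ran from 86.7 to 93 per array. One array stood apart: OFF6 replicate 2 had a mean correlation across genes of 0.991 with the other OFF6 arrays and 0.995 with the OFF3 arrays, and results at day 6 are therefore given with and without it. The fibroblast label was set against 20 fibroblast markers, of which 19 were measured. Their summed intensity was 27353 to 27736 in TUM, 38125 to 39290 in OFF3, 27648 to 37495 in OFF6 and 19444 to 20432 in CTL. The sum joins genes that differed in opposite directions between TUM and CTL, such as Col1a2, a fibrillar collagen chain (1.80 ± 0.07), and Clec3b (-2.27 ± 0.19), and it does not show which cells the RNA came from. In bulk samples, fewer cells of a type and less RNA per cell cannot be told apart.

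Promoter windows were available from RefSeq (build GRCm38.p6) for 4 of the 8 genes. The 250 bases before the most downstream annotated start are given, since these 4 genes span both patterns described further on: Tnc and Postn, which were higher in TUM than in CTL, and Dpt and Itih5, which were lower. Capitals mark matches, on either strand, to TATAA (the TATA box), CAGAC (the core letters bound by SMAD proteins) or CAGCTG (an E-box of the kind bound by myogenic factors).

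Tnc, chr4:64046937-64047186, minus strand: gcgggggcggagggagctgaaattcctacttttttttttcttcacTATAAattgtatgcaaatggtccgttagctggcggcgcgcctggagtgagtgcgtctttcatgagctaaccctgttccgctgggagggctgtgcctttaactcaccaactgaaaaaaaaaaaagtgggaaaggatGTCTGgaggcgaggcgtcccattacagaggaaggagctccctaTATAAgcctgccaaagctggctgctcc
Postn, chr3:54360857-54361106, plus strand: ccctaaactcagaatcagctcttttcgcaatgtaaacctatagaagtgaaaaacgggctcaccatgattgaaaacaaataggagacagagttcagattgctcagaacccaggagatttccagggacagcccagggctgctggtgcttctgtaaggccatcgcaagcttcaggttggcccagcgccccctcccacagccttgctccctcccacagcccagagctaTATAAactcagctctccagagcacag
Dpt, chr1:164796413-164796662, plus strand: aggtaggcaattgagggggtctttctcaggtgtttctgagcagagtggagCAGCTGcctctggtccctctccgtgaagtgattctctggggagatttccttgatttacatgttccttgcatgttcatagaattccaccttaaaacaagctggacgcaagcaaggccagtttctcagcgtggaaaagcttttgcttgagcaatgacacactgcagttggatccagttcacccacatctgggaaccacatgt
Itih5, chr2:10153293-10153542, plus strand: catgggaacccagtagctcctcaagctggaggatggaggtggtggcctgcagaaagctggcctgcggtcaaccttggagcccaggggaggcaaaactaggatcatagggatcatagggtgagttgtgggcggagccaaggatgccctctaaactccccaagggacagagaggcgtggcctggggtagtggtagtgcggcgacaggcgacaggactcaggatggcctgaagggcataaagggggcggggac

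The Tnc and Postn windows each held TATAA close to the start, with its first base 27 bases before the start in Tnc and 26 bases before it in Postn. Over all 32851 windows of the same length, 22.8% held TATAA, 42.2% held CAGAC and 13.0% held CAGCTG somewhere. GGAATG, the letters bound by the YAP partners of the TEAD family, was in 0 of the 6 windows of these 4 genes and in 12.6% of all windows. TGANTCA, the letters bound by AP-1, was in 0 of the 6 windows and in 6.7% of all. A match or its lack describes only the letters in these windows.

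Fap and Pamr1 encode a protease and a protein with a peptidase domain. Fap had log2 intensities of 6.49, 6.30 and 6.28 in TUM, 8.38, 8.30 and 8.20 in OFF3, 7.53, 8.39 and 7.55 in OFF6, and 7.09, 7.23 and 7.04 in CTL. Every array off doxycycline lay above every TUM and every CTL array, and TUM was the lowest group. The difference from TUM was 1.93 ± 0.18 (SE of the fit) in OFF3, a factor of 3.82, and 1.46 ± 0.18 in OFF6, a factor of 2.76. TUM minus CTL was -0.76 ± 0.18.

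Pamr1 had 5.94, 5.97 and 6.01 in TUM, 8.81, 8.67 and 8.61 in OFF3, 8.48, 8.90 and 8.58 in OFF6, and 8.07, 8.24 and 8.28 in CTL. Its TUM arrays lay more than 2 log2 units below all others, and its OFF3 and OFF6 arrays overlapped and lay above CTL. The factor over TUM was 6.61 in OFF3 (2.72 ± 0.10) and 6.40 in OFF6 (2.68 ± 0.10), and TUM minus CTL was -2.22 ± 0.10. Of all genes, 2 had a larger OFF3 minus TUM difference.

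Tenascin-C and periostin are matricellular proteins, which alter how cells hold on to the matrix. Tnc had 9.58, 9.61 and 9.66 in TUM, 11.39, 11.17 and 11.26 in OFF3, 11.68, 11.04 and 11.63 in OFF6, and 7.41, 7.68 and 7.32 in CTL. It was lowest in CTL, intermediate in TUM and highest in OFF3 and OFF6, whose arrays overlapped. Its OFF6 mean was the highest of the 4 groups, which was the case for no other of the 8 genes. The factor over TUM was 3.16 in OFF3 (1.66 ± 0.15) and 3.57 in OFF6 (1.84 ± 0.15), TUM minus CTL was 2.14 ± 0.15, and OFF6 minus CTL was 3.98 ± 0.15, a factor of 15.8.

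Postn had 11.75, 11.68 and 11.86 in TUM, 12.69, 12.52 and 12.65 in OFF3, 12.33, 12.54 and 12.34 in OFF6, and 8.79, 9.15 and 9.06 in CTL. The order was that of Tnc with OFF3 on top, and OFF6 replicate 2 lay within the OFF3 range. TUM minus CTL was 2.76 ± 0.10, a factor of 6.79, the largest among the 4 of the 8 genes that were higher in TUM. The steps over TUM were smaller, 0.86 ± 0.10 in OFF3 (1.81-fold) and 0.64 ± 0.10 in OFF6 (1.56-fold).

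Fibronectin and dermatopontin are structural partners of collagen and of cell surface receptors. Fn1 had 12.67, 12.62 and 12.69 in TUM, 13.05, 12.97 and 12.98 in OFF3, 12.80, 12.87 and 12.81 in OFF6, and 11.10, 11.20 and 11.25 in CTL. The 4 groups did not overlap, but within the tumours the steps were small. OFF3 minus TUM was 0.35 ± 0.06 (1.27-fold), OFF6 minus TUM 0.17 ± 0.06 (1.13-fold) and TUM minus CTL 1.47 ± 0.06 (2.77-fold).

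Dpt had 8.46, 8.24 and 8.41 in TUM, 10.98, 10.80 and 10.90 in OFF3, 10.17, 11.21 and 10.23 in OFF6, and 10.63, 10.77 and 10.71 in CTL. TUM stood alone at the bottom, OFF3 lay just above CTL, and the OFF6 arrays lay on both sides of CTL, with replicate 2 above it and replicates 1 and 3 below. The factor over TUM was 5.74 in OFF3 (2.52 ± 0.21) and 4.50 in OFF6 (2.17 ± 0.21). TUM minus CTL was -2.33 ± 0.21 and OFF6 minus CTL was -0.16 ± 0.21.

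Itih5 had 5.98, 5.87 and 5.85 in TUM, 8.25, 8.20 and 8.65 in OFF3, 7.09, 8.20 and 7.16 in OFF6, and 8.98, 9.16 and 9.07 in CTL. It was the only one of the 8 genes with CTL on top, and OFF6 replicate 2 lay level with the lowest OFF3 array to 2 decimals. The factor over TUM was 5.54 in OFF3 (2.47 ± 0.23) and 3.00 in OFF6 (1.58 ± 0.23), TUM minus CTL was -3.17 ± 0.23, a factor of 9 lower in TUM, and OFF6 minus CTL was -1.59 ± 0.23.

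Ccdc80 had 11.30, 11.24 and 11.30 in TUM, 11.96, 11.91 and 11.85 in OFF3, 11.29, 11.80 and 11.31 in OFF6, and 9.63, 9.64 and 9.64 in CTL. It was higher in OFF3 than in TUM by 0.62 ± 0.11 (1.54-fold), and OFF6 replicates 1 and 3 lay at the TUM level. OFF6 minus TUM was 0.18 ± 0.11, with overlapping arrays, and TUM minus CTL was 1.65 ± 0.11 (3.13-fold). The plot of levels by array shows these 4 groups for each gene.

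**Figure D1:**
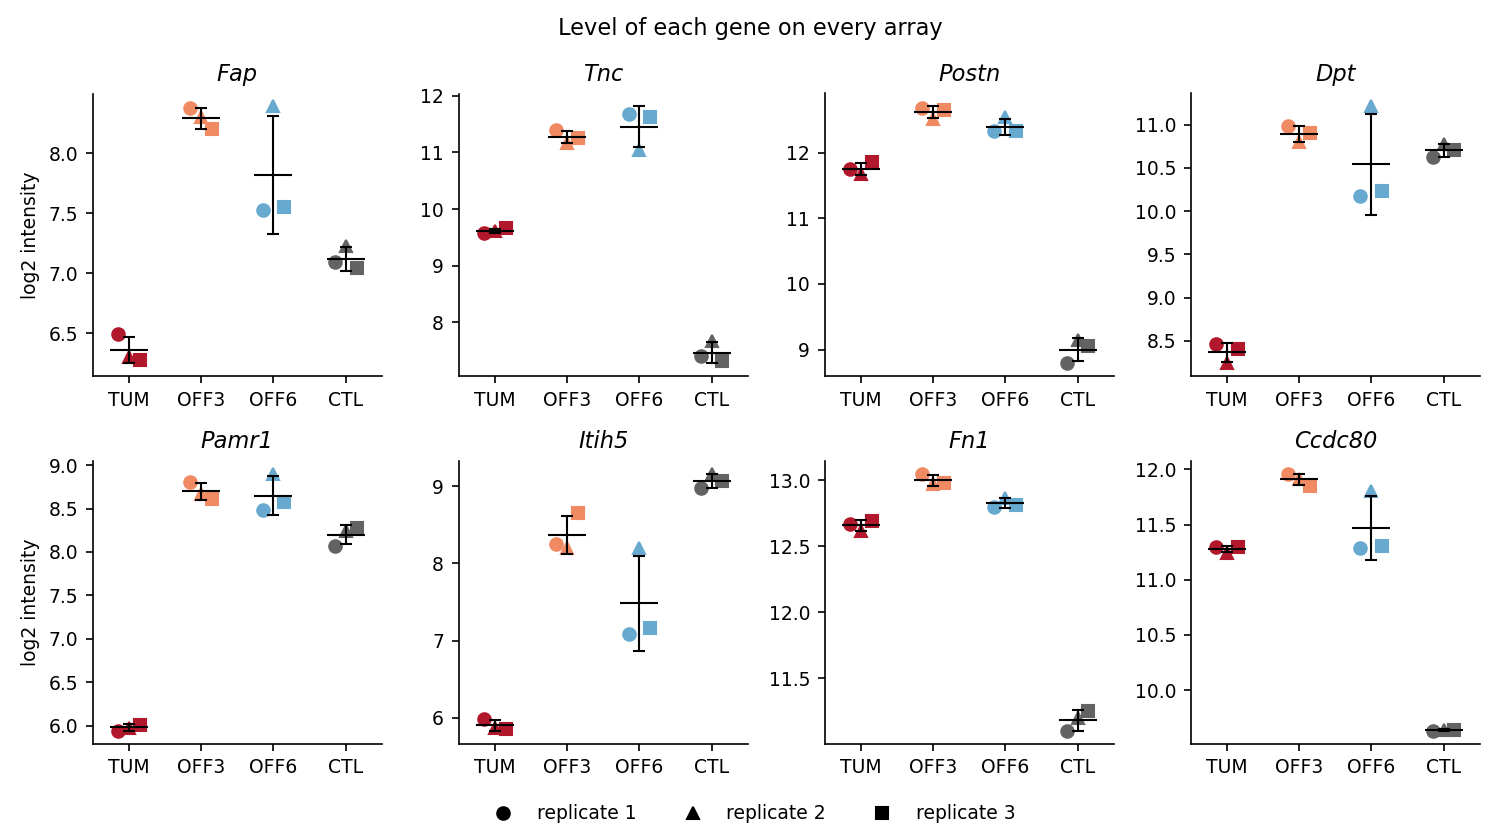
Log2 intensity of the 8 genes (vertical axis, a separate scale per gene) on each of the 12 arrays by group, with black bars for the mean and SD of 3 arrays. TUM is the lowest group for Fap, Dpt, Pamr1 and Itih5 and CTL is the lowest for Tnc, Postn, Fn1 and Ccdc80, and the triangle of OFF6 replicate 2 stands away from the other OFF6 arrays in most panels.

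Side by side, the 8 genes shared 1 feature and divided on another. At day 3 all 8 lay above TUM with no overlap of arrays, where 22.1% of all genes did so, and the differences ran from 0.35 to 2.72 with a median of 1.80 (0.02 over all genes). At day 6, 7 of the 8 lay wholly above TUM, where 26.9% of all genes did so, with a median of 1.52 (0.05 over all genes). These shares follow from how the genes were listed, and nothing is read from them. Against muscle, 4 lay wholly higher in TUM than in CTL (Tnc, Postn, Fn1 and Ccdc80), where 32.3% of all genes did so. The other 4 lay wholly lower (Fap, Dpt, Pamr1 and Itih5), where 50.4% did so. The lower count is near the share of all genes, and nothing is read from this division either. The 4 that were lower in TUM than in CTL had the 4 largest OFF3 minus TUM differences, from 1.93 to 2.72, while the other 4 had 0.35 to 1.66. Both differences use the same TUM arrays, so this order is no independent link between them. At day 6, 6 of the 8 lay wholly above CTL, where 28.8% of all genes did so, Itih5 lay wholly below it, where 39.6% did so, and Dpt overlapped it. Those 6 and Dpt also lay wholly above CTL at day 3, Dpt only narrowly (lowest OFF3 array 10.80, highest CTL array 10.77). That comparison was not counted over all genes, so nothing is read from it.

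**Figure D2:**
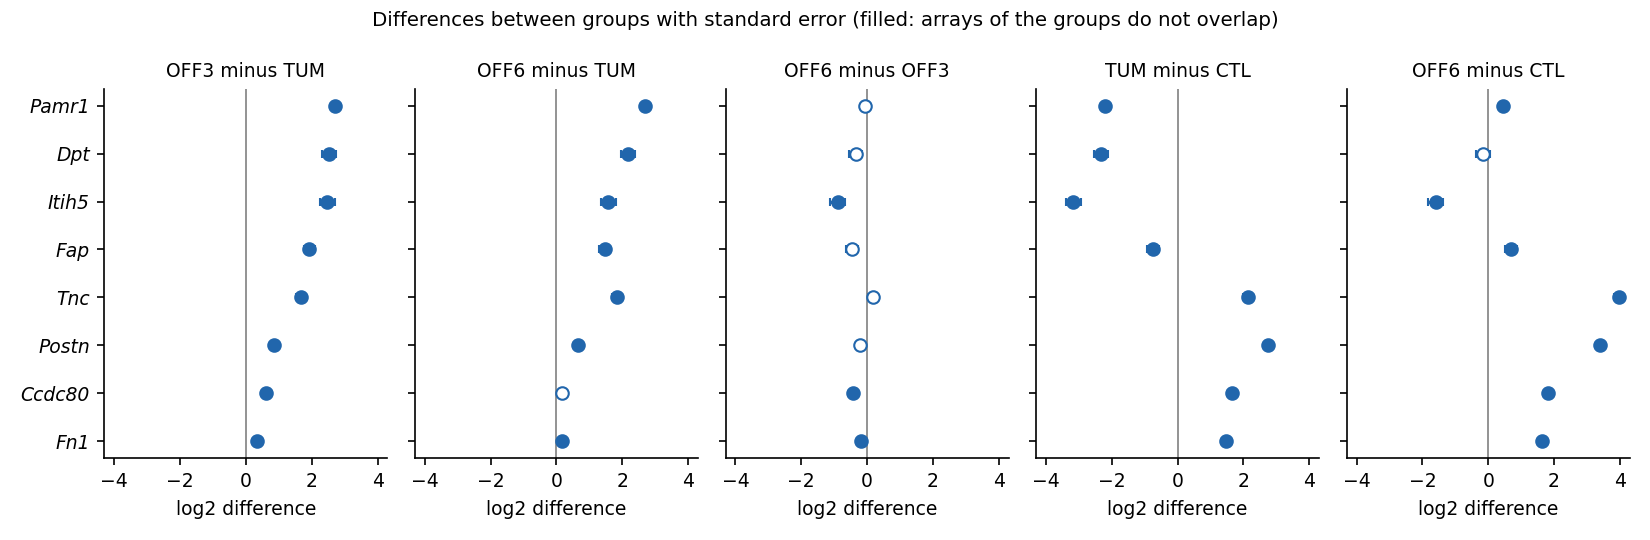
Log2 difference of each gene in 5 comparisons (horizontal axis, the first-named group minus the second) with the standard error of the fit, and filled points where the arrays of the groups do not overlap. Pamr1, Dpt, Itih5 and Fap lie left of 0 in TUM minus CTL, from -3.17 to -0.76, and the other 4 right of it, from 1.47 to 2.76, while all 8 lie right of 0 in OFF3 minus TUM.

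Between day 3 and day 6 the differences were smaller, and 1 array carried much of the spread. Over all arrays OFF6 minus OFF3 ran from -0.89 ± 0.23 (Itih5) to 0.18 ± 0.15 (Tnc), with a median of -0.28. The arrays did not overlap in Itih5, Ccdc80 (-0.44 ± 0.11) and Fn1 (-0.17 ± 0.06), all lower in OFF6, where 8.73% of all genes lay wholly lower. OFF6 replicate 2 was above both other OFF6 arrays in 7 of the 8 genes (40.6% of all genes) and below both in Tnc (42.7% of all genes). It exceeded the mean of replicates 1 and 3 by 1.07 in Itih5, 1.01 in Dpt, 0.84 in Fap, 0.50 in Ccdc80, 0.37 in Pamr1, 0.20 in Postn and 0.06 in Fn1, and lay 0.62 below that mean in Tnc (-0.62). Replicates 1 and 3 differed from each other by 0.11 at most, in Pamr1. OFF6 replicate 2 lay nearer the OFF3 mean than the mean of the other OFF6 arrays in 7 of the 8 genes and in 62.0% of all genes.

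Without OFF6 replicate 2, OFF6 minus OFF3 was -1.24 ± 0.12 in Itih5, -0.75 ± 0.08 in Fap, -0.69 ± 0.08 in Dpt, -0.61 ± 0.06 in Ccdc80, -0.29 ± 0.10 in Postn, -0.19 ± 0.06 in Fn1 and -0.17 ± 0.08 in Pamr1, and 0.38 ± 0.10 in Tnc. Tnc was thus the 1 gene of the 8 with a positive difference, with or without that array. Against TUM, the day 6 differences without it were 2.55 in Pamr1, 2.04 in Tnc, 1.83 in Dpt, 1.23 in Itih5, 1.18 in Fap, 0.57 in Postn, 0.15 in Fn1 and 0.02 in Ccdc80, with a median of 1.20. Against CTL they were 4.19 in Tnc, 3.33 in Postn, 1.66 in Ccdc80, 1.62 in Fn1, 0.42 in Fap, 0.33 in Pamr1, -0.50 in Dpt and -1.94 in Itih5.

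**Figure D3:**
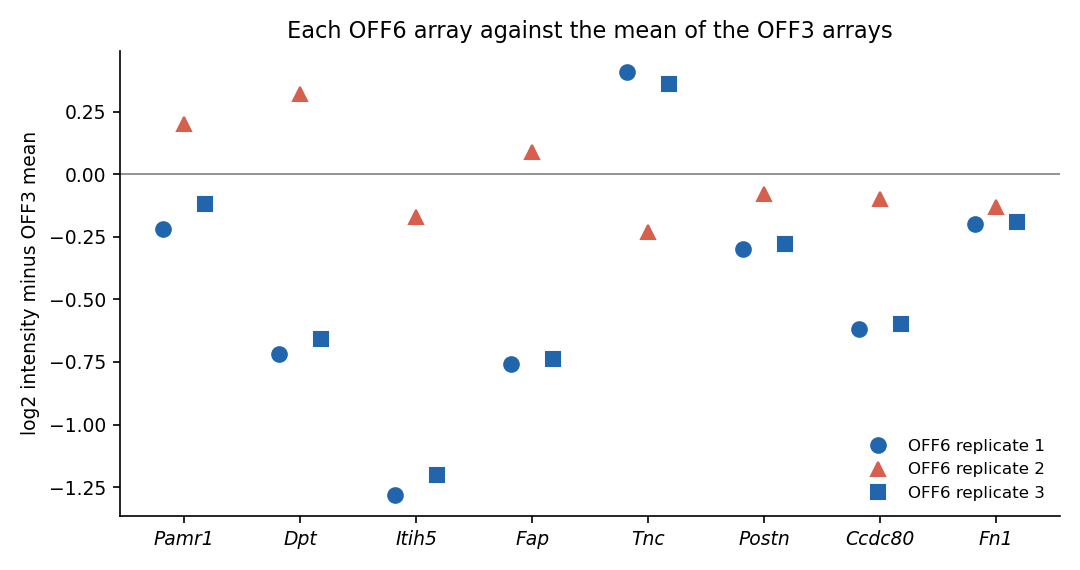
Log2 intensity of each OFF6 array minus the mean of the 3 OFF3 arrays (vertical axis) for the 8 genes, with OFF6 replicate 2 as a red triangle. Replicates 1 and 3 sit together below 0 in every gene except Tnc, where they lie at 0.41 and 0.36 and replicate 2 lies at -0.23.

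For each gene, the 2 genes outside the 8 with the smallest root mean square difference over the 12 arrays, after centring each gene on its own mean, were looked up, leaving out symbols that begin with Gm and a number or contain Rik. For Fap they were Islr (0.14 log2 units), a surface protein of mesenchymal cells, and Svep1 (0.17), a large adhesion protein. For Tnc they were Mymk (0.29), the myoblast fusion protein myomaker, and Cxcl9 (0.31), an interferon-induced chemokine. Those of Postn were Ifit2 (0.15), an interferon-induced gene, and Col12a1 (0.16), a fibril-associated collagen. Outside the 8, Dpt was likest to Lum (0.35), the proteoglycan lumican, and Ace (0.37), angiotensin-converting enzyme, and Pamr1 to Lum (0.43) and Mss51 (0.46). Itih5 was likest to the transporter Abca8a (0.26) and to Itm2a (0.29), Fn1 to Bmp1 (0.08), the enzyme that trims procollagen, and Acta2 (0.08), smooth muscle actin, and Ccdc80 to Fstl1 (0.09) and Fkbp7 (0.10). The median over all genes ran from 0.79 for Fn1 to 1.66 for Tnc. Among the 8 themselves, Dpt and Pamr1 were nearest to each other (0.29), nearer than either was to Lum. Fn1 and Ccdc80 were also nearest to each other among the 8 (0.20), and so were Tnc and Postn (0.48). Fn1, Ccdc80, Tnc and Postn each lay nearer still to the outside genes named above.

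Genes around these 8 were taken from 5 lists, with 94 of 99 genes measured, and were tested with limma, adjusted over all 19937 genes. Of the 94, 47 rose and 13 fell at day 3, where 13.4% of all genes rose and 16.0% fell, and the median difference was 0.22 (0.02 over all genes). The lists were written with earlier results of these data known, so their counts are a description. For these genes, brackets hold the log2 difference ± SE of the fit and then the limma p adjusted over all genes. The plot of the 5 lists shows each gene.

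Among 15 relatives of the 8 genes, 5 rose, 2 fell and 8 did not pass at day 3, with a median of 0.12. Dpp4, the closest relative of Fap and also a surface dipeptidyl peptidase, rose by 1.85 ± 0.23 (adjusted p = 6.12e-05), and Tnxb, a tenascin of resting connective tissue, by 1.86 ± 0.18 (9.00e-06). Tgfbi, the relative of Postn, fell (-0.41 ± 0.06, 0.000169), opposite in sign to Postn. Dpp9, a cytoplasmic dipeptidyl peptidase, fell (-0.29 ± 0.08, 0.012). That call was lost on leaving out TUM replicate 2 (-0.25, 0.0559) or OFF3 replicate 3 (-0.22, 0.0509), and with either array left out 4 relatives rose and 1 fell. Srpx2, a relative of Ccdc80, rose by 0.49 ± 0.09 (0.000815), and Itih4 differed by 0.09 ± 0.09 (0.528). In TUM minus CTL 3 relatives rose and 10 fell, where 30.3% and 45.9% of all genes did so. Srpx2 rose most (2.77 ± 0.09, 2.05e-11), averaging 10.24 ± 0.03 in TUM and 7.47 ± 0.09 in CTL (SD, n = 3), and Tnxb fell most (-3.32 ± 0.18, 3.53e-09), averaging 6.60 ± 0.13 in TUM and 9.92 ± 0.05 in CTL. Tnxb was at 8.46 ± 0.10 in OFF3 and 8.07 ± 0.51 in OFF6.

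Receptors moved in both directions. Of 15 measured, 6 rose, 4 fell and 5 did not pass at day 3, with a median of -0.07. The integrin subunits Itgb8 (1.02 ± 0.18, adjusted p = 0.00096) and Itga4 (0.87 ± 0.12, 0.00011) rose most. Plaur, the urokinase receptor (-1.75 ± 0.12, 6.96e-07), and Sdc4, the proteoglycan syndecan-4, which binds fibronectin (-1.05 ± 0.08, 1.46e-06), fell most. Itga8 (0.70 ± 0.15, 0.00333) and Itga9 (0.47 ± 0.11, 0.00521), whose integrins bind tenascin-C, rose. Itga8 had a low signal, averaging 5.69 ± 0.11 in TUM and 6.38 ± 0.33 in OFF3 (SD, n = 3). Itgb8 averaged 6.61 ± 0.03 in TUM and 7.63 ± 0.27 in OFF3. The median over all genes of the mean over 12 arrays was 7.18. The 2 subunits of the classic fibronectin receptor did not pass, with Itga5 at -0.07 ± 0.12 (0.747) and Itgb1 at 0.04 ± 0.08 (0.797). Itgav differed by -0.43 ± 0.13 (0.0231), and this call was lost on leaving out TUM replicate 1 (-0.43, 0.0619), 2 (-0.40, 0.0728) or 3 (-0.45, 0.0509), or OFF3 replicate 3 (-0.32, 0.103). Across the alternatives its adjusted p lay between 7.05e-05 and 0.103. In TUM minus CTL 11 receptors rose and 3 fell. Plaur rose most (2.89 ± 0.12, 3.53e-10), averaging 9.85 ± 0.06 in TUM and 6.96 ± 0.17 in CTL, and Itgb6, an integrin subunit best known from epithelium, fell most (-1.67 ± 0.13, 1.47e-07).

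Of 24 matrix glycoproteins 16 rose, 2 fell and 6 did not pass at day 3, with a median of 0.50. Cthrc1, a secreted protein of activated fibroblasts, rose by 1.95 ± 0.11 (1.47e-07), averaging 10.77 ± 0.05 in OFF3 and 8.83 ± 0.09 in TUM (SD, n = 3). The elastic fibre protein Mfap4 rose by 1.48 ± 0.11 (7.13e-07). Thrombospondin Thbs1 (-0.98 ± 0.11, 3.45e-05) and the basement membrane protein Nid2 (-0.93 ± 0.09, 9.30e-06) fell. In TUM minus CTL 17 rose and 5 fell, with a median of 0.86. Thbs1 rose most (3.13 ± 0.11, 7.93e-11), averaging 12.76 ± 0.02 in TUM and 9.63 ± 0.26 in CTL, and the calcium-binding Smoc2 fell most (-2.04 ± 0.16, 1.40e-07).

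Of 21 genes of TGF-beta signalling and collagen cross-linking 9 rose, 3 fell and 9 did not pass at day 3, with a median of 0.19. The ligand Tgfb3 (0.94 ± 0.06, 2.60e-07) and the co-receptor Tgfbr3 (0.84 ± 0.14, 0.000505) rose most, and the lysyl oxidases Loxl4 (-1.34 ± 0.10, 1.13e-06) and Loxl3 (-0.47 ± 0.11, 0.00733), which cross-link collagen, fell most. In TUM minus CTL 16 rose and 3 fell, with a median of 1.43. Ccn4, a matricellular protein, rose most (3.78 ± 0.12, 3.36e-11), averaging 10.36 ± 0.01 in TUM and 6.58 ± 0.11 in CTL, and Tgfbr3 fell most (-0.86 ± 0.14, 9.60e-05).

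Of 19 fibroblast identity genes 11 rose, 2 fell and 6 did not pass at day 3, with a median of 0.41. The proteoglycans Lum (2.26 ± 0.26, 3.17e-05) and Dcn (1.43 ± 0.15, 1.24e-05) rose most, Dcn encoding the decorin that dermatopontin binds. Dcn averaged 12.51 ± 0.17 in OFF3 and 11.08 ± 0.01 in TUM (SD, n = 3), and 12.47 ± 0.02 in CTL. The transcription factor Osr1 (-1.15 ± 0.11, 9.76e-06) and the chemokine Cxcl12 (-0.70 ± 0.10, 0.00022) fell most. In TUM minus CTL 9 rose and 7 fell, with a median of -0.15, the same as over all genes (-0.15). Osr1 rose most (1.94 ± 0.11, 6.63e-09) and Clec3b, the plasminogen-binding tetranectin, fell most (-2.27 ± 0.19, 2.44e-07). The fibroblast list, like the 8 genes, thus held genes on both sides of muscle.

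**Figure D4:**
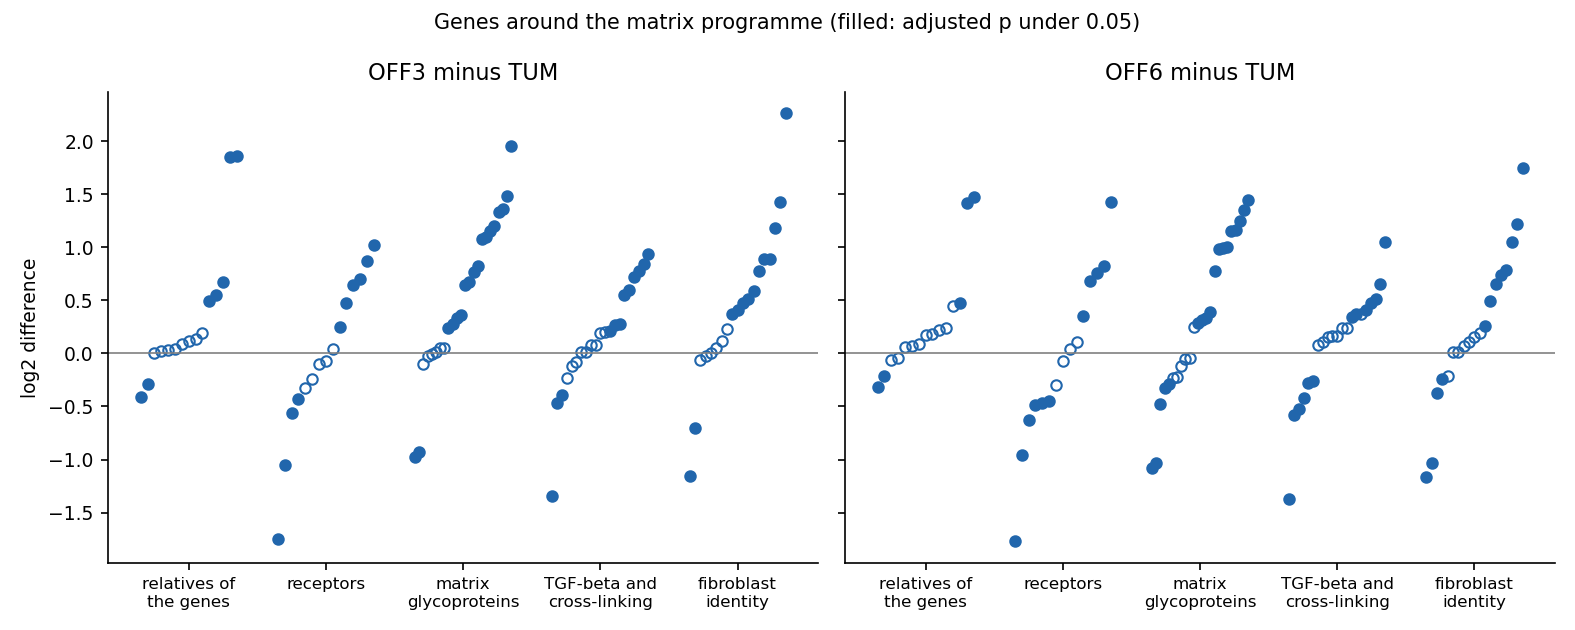
Log2 difference (vertical axis) of each gene of the 5 lists, sorted within its list, for OFF3 minus TUM and OFF6 minus TUM, with filled points where the adjusted p was under 0.05. At day 3 the filled points lie mostly above 0 among matrix glycoproteins (16 against 2) and fibroblast identity genes (11 against 2), and on both sides among receptors (6 against 4).

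At day 6, 36 of the 94 genes were higher than TUM and 23 lower, where 14.9% and 16.6% of all genes were, and with OFF6 replicate 2 left out 36 were higher and 26 lower (16.2% and 18.4%). In OFF6 minus CTL 59 were higher and 16 lower, where 28.1% and 36.1% of all genes were, and 60 and 17 without that array (28.2% and 33.1%).

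Between day 3 and day 6, 4 of the 94 rose and 16 fell, where 6.05% and 4.38% of all genes did so, 20 in either direction. With OFF6 replicate 2 left out 7 rose and 39 fell, 46 in either direction, where 24.4% of all genes did so. These counts moved with other single arrays too. They were 2 and 10 without TUM replicate 1 or 3, 2 and 12 without TUM replicate 2, and 2 and 13 without CTL replicate 2. They were 2 and 3 without OFF3 replicate 1, 1 and 3 without OFF3 replicate 2, 2 and 21 without OFF3 replicate 3, 1 and 2 without OFF6 replicate 1, and 2 and 2 without OFF6 replicate 3. The fibroblast identity list had 1 rise and 7 falls. Its falls numbered 14 without OFF6 replicate 2 but 1 without any one of OFF3 replicates 1 and 2 and OFF6 replicates 1 and 3, and 5 to 7 without any one of the other arrays. It had 1 rise without OFF6 replicate 2 or 3, and 0 without any one of the other arrays. The matrix glycoproteins had 0 rises and 6 falls. Their falls numbered 14 without OFF6 replicate 2, 2 without OFF3 replicate 1 or 2, 1 without OFF6 replicate 1 or 3, and 4 to 6 without any one of the other arrays.

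Some markers of other cell types also differed at day 3, where 13.4% of all genes rose and 16.0% fell. Their part in the differences of the 8 genes was not tested. Of 5 muscle markers 5 rose at day 3, with summed intensities of 14031 to 15150 in TUM, 23872 to 28874 in OFF3, 23410 to 24620 in OFF6 and 38139 to 39170 in CTL. Endothelial markers rose in 5 of 5 (2079 to 2158 in TUM, 3070 to 3303 in OFF3, 2346 to 2820 in OFF6 and 3980 to 4068 in CTL). Of 5 pericyte markers 4 rose and 1 fell (1648 to 1757 in TUM, 3081 to 3408 in OFF3, 2886 to 3113 in OFF6 and 7714 to 7920 in CTL), and of 5 tendon markers 3 rose (5205 to 5359 in TUM, 7160 to 8771 in OFF3, 7289 to 7836 in OFF6 and 4447 to 4632 in CTL). The tendon markers Scx (-0.05 ± 0.17) and Mkx (0.05 ± 0.14) did not pass. The sums of these 2 lists and of muscle join opposite directions. In TUM minus CTL, 3 tendon markers rose and 2 fell, while muscle and pericyte markers each had 1 rise and 4 falls. Of all genes, 30.3% rose and 45.9% fell there. Of 5 macrophage markers 1 rose (9607 to 9671 in TUM, 10967 to 12273 in OFF3, 7114 to 11325 in OFF6 and 1247 to 1465 in CTL). That count was 0 without any one of the TUM arrays or without OFF3 replicate 1 or 3, and 3 without OFF6 replicate 2. At day 3, 0 of 5 adipocyte markers passed the test (613 to 693 in TUM, 652 to 834 in OFF3, 513 to 911 in OFF6 and 2592 to 2693 in CTL) and 0 of 3 Schwann cell markers (3759 to 4156 in TUM, 3893 to 4495 in OFF3, 2967 to 4157 in OFF6 and 2674 to 2838 in CTL). Most of the Schwann cell sum was Pmp22, with a mean intensity of 3868 in TUM and 2603 in CTL. The other markers, Sox10 (68 and 111) and S100b (34 and 48), were lower in TUM than in CTL.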

How the data were processed

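Expression was measured on 12 one-colour arrays, 3 per group, hybridised with biotinylated cRNA. The authors deposited a linear intensity for each probe set, made with RMA per the submitters' processing notes; its version is not given in the sources used here. Scanner files were not used here. Of 34760 probe sets, 21640 carried 1 gene symbol and were used; 1321 carried several and 11799 none. Log2 was taken, and the probe set with the highest mean was kept for each of 19937 genes; each of the 8 genes had 1 probe set. The 12 arrays entered a single limma model of the 4 group means (version 3.58.1, R 4.3.3, functions lmFit and eBayes), with the package data.table (version 1.17.8). Tests were two-sided, with Benjamini-Hochberg adjustment over all genes and an adjusted p under 0.05 as a call, and the procedure was tested on simulated data. Errors of differences are standard errors from this fit, which shares 1 spread over the 4 groups for each gene. In Fap, for example, the SD was 0.49 in OFF6 and 0.09 to 0.11 in the other groups. In such genes the errors understate the OFF6 scatter and overstate that of comparisons without OFF6. Since nothing says that replicates were separate animals, a p-value here reflects only how much these arrays vary, which may be technical, and the number of arrays limits the precision. No filter on low values was used, and no arrays were identical.

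The 8 genes, the 5 lists around them and the 7 marker lists were chosen with earlier results of these data known. Named from each list were the 2 largest called rises and falls in OFF3 minus TUM, the largest called each way in OFF6 minus OFF3 and TUM minus CTL, and the closest relatives and main integrin receptors of the 8 genes. Some listed genes, such as Fbn1, Efemp2, Loxl2 and Ly6a, were not analysed here. Alternatives were the mean over probe sets, 2 other scalings, a filter on low levels, a replicate block, a trended variance, array weights, models of 6 arrays, 2 stricter thresholds, and leaving out each array. Promoter windows and motif matches were read from RefSeq with Python 3.11.15, and plots were drawn with matplotlib 3.10.9.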

Additional observations from a re-analysis of the deposited data

Results flagged for a closer look

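Among the genes named from the lists, 9 had a day 6 difference from TUM that differed from their day 3 difference by the fit's own contrast, OFF6 minus OFF3. Both differences use the same TUM arrays. All of them except Cthrc1 were named as the largest called rise or fall of their list in that contrast. Their passing it thus follows from how they were named, and nothing is read from the count. Of all genes, 6.05% rose and 4.38% fell in that contrast. Of the 9 genes, 4 lay higher at day 6. Itgb6 differed by 0.79 ± 0.13 (adjusted p = 0.00516), with 1.43 over TUM at day 6 and 0.64 at day 3, and by 0.99 without OFF6 replicate 2. Pi16, a marker of adventitial fibroblasts, differed by 0.56 ± 0.15 (0.0399; 0.32 without that array), Ccn2, a matricellular YAP target, by 0.33 ± 0.07 (0.0167; 0.29 without it), and Tgfbi by 0.20 ± 0.06 (0.044; 0.23 without it).

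The other 5 lay lower at day 6. Vcan, the proteoglycan versican, differed by -0.54 ± 0.09 (adjusted p = 0.00381), with -0.29 against TUM at day 6 and 0.24 at day 3. Cthrc1 differed by -0.51 ± 0.11 (0.0162), Tgfbr3 by -0.47 ± 0.14 (0.047), Cxcl12 by -0.46 ± 0.10 (0.0155) and Egfr, the epidermal growth factor receptor, by -0.35 ± 0.09 (0.0282). Without OFF6 replicate 2 these were -0.59 in Vcan, -0.67 in Cthrc1, -0.69 in Tgfbr3, -0.61 in Cxcl12 and -0.44 in Egfr. The calls of Tgfbr3, Pi16 and Tgfbi were lost in 11, 10 and 9 of the 12 models that left out 1 array. Those of Egfr and Cxcl12 were lost in 4 each and that of Ccn2 in 3. The highest adjusted p of these genes in those models was 0.215, in Tgfbr3. The calls of Itgb6 and Vcan were lost in 0 of the 12. That of Cthrc1 was lost at least without OFF6 replicate 1 or 3, where Vcan was the only matrix glycoprotein called lower. In a limma model of only the 6 OFF3 and OFF6 arrays, 0 of the 94 listed genes passed. Every call flagged here was lost in that model, those of Itgb6, Vcan and Cthrc1 included.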

How the results depend on the processing

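The differences of the 8 genes kept within 1 SD of replicates in 663 of 680 values under the alternatives, and 17 moved further. Many of the 680 values could not move. Leaving out an array of a group that is not compared keeps a difference as it was. So does the mean over probe sets for genes with 1 probe set. That SD also takes in the wide OFF6 spread. Fap, Dpt, Itih5 and Ccdc80 moved further in every comparison with OFF6 when OFF6 replicate 2 was left out. The median difference in OFF6 minus TUM (1.52) was 1.20 to 1.67 when 1 array was left out. The counts for the 94 listed genes in OFF6 minus OFF3 (4 higher and 16 lower) were 12 and 55 with array weights, 1 and 2 at an adjusted p under 0.01, 0 and 0 at 2-fold or more, and 1 to 7 higher and 2 to 39 lower with 1 array left out. In a limma model of only those 6 arrays they were 0 and 0, with 30 of 94 genes at an unadjusted p under 0.05. A minimum of 2-fold left 14 higher and 4 lower in OFF3 minus TUM, 12 and 6 in OFF6 minus TUM, 10 lower in TUM minus CTL and 3 lower in OFF6 minus CTL. The labels do not say whether same-numbered replicates belonged together. Their deviations from the group means correlated between -0.29 and 0.25, and with 3 arrays per group this cannot settle it. A replicate block gave 46 higher and 13 lower in OFF3 minus TUM, 35 and 23 in OFF6 minus TUM, 3 and 13 in OFF6 minus OFF3, 56 and 28 in TUM minus CTL and 59 and 17 in OFF6 minus CTL. The block lost the OFF6 minus OFF3 calls of Tgfbi (adjusted p = 0.0777) and Tgfbr3 (0.0584). Median differences of all genes moved by at most 0.05 between scalings. The stricter thresholds hold fewer calls by construction, and the cause of the other changes was not tested.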
